A study of Mus musculus with 9 samples.

Results

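The urea cycle and ammonia handling genes were 10 genes picked by name, Cps1, Otc, Ass1, Asl, Arg1, Nags, Slc25a15, Gls2, Glul and Oat, out of 17846 genes measured in mouse liver. All 10 were present, and all 10 were among the 13620 genes that passed a filter on low counts. RNA sequencing of mRNA libraries was done on the livers of 9 male wild-type mice of the strain that the labels write as C57/BL, 1 library per mouse and 3 mice per group. Control mice (replicates 3, 4 and 29) ate a normal diet. NASH mice (5, 19 and 20) ate the Ath diet, an atherogenic diet with cholesterol and cholate, for 20 weeks and stayed sedentary, while NASH+Exercise mice (8, 18 and 22) ate the same diet for 20 weeks and trained on a treadmill in the last 8. Training began at 20 weeks of age by the study's outline of its design, and mice of every group were fasted overnight before sacrifice. The steatohepatitis is thus a diet model, and its cholate is a bile acid that the Control mice did not receive. The study's groups held more mice than were sequenced, and how the sequenced ones were picked is not stated in the sources used here. The labels do not say whether the mice of a group shared a cage.

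The liver is the main site where ammonia is made harmless. In the periportal hepatocytes, which meet portal blood first, glutaminase 2 (Gls2) releases ammonia from glutamine inside mitochondria. Carbamoyl phosphate synthetase (Cps1), switched on by the N-acetylglutamate that Nags makes, joins that ammonia to bicarbonate. Ornithine transcarbamylase (Otc) passes the product to ornithine, and the carrier encoded by Slc25a15 exchanges ornithine and citrulline across the inner membrane. In the cytosol argininosuccinate synthetase (Ass1), argininosuccinate lyase (Asl) and arginase (Arg1) complete the cycle and release urea. A narrow ring of pericentral hepatocytes holds glutamine synthetase (Glul), which captures the ammonia that escapes, and ornithine aminotransferase (Oat), which turns ornithine into glutamate precursors. The comparisons asked what the Ath diet did to these transcripts and what aerobic exercise did to them in mice on that diet.

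Promoter sequence is shown for 3 of the genes, Oat, Glul and Ass1, because they were lower together in NASH mice and come from both zones of the lobule. RefSeq windows were found for 6 of the 10 genes, namely Otc, Ass1, Nags, Slc25a15, Glul and Oat. Each line holds the 150 bases before the annotated start in GRCm38.p6, read 5′ to 3′ on the gene's own strand, and capitals mark the letters CCAAT on either strand.
Oat, minus strand, chr7:132576399-132576548: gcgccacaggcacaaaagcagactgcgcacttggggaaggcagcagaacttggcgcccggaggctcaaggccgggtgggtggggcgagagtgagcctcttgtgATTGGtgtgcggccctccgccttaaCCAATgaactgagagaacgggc
Glul, plus strand, chr1:153899779-153899928: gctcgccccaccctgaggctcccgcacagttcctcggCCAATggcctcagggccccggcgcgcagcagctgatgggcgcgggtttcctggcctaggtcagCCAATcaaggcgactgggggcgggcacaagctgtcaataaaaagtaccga
Ass1, plus strand, chr2:31470120-31470269: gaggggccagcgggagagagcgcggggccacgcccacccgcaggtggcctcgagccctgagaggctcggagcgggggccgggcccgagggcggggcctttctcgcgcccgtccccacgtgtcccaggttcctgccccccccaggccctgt
CCAAT was found in the 250 bases before the start of 2 of the 6 genes, Oat and Glul, each with 2 matches. The same letters were in 33.8% of 32851 RefSeq windows of that length. In Glul the matches began 113 and 50 bases before the start, and in Oat they began 47 bases before it on the opposite strand and 22 bases before it. On either strand, the TATA letters TATAA were in 1 of the 6 genes, Slc25a15, and in 22.8% of all windows. In Nags a single stretch matched the letters CAAAG of HNF4 (48.6% of windows) and, overlapping it on the other strand, CTTTGA of TCF/LEF factors (13.8%). Another 3 motifs were searched on both strands and had no match in the 6 genes. They were the letters TTGCG of C/EBP factors, held by 14.5% of all windows, the letters TGACG of cAMP response elements, held by 17.8%, and the letters AGAACA of the glucocorticoid receptor, held by 16.1%. Matches are letters in a window and not sites of binding.

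The estimated counts summed to between 20086007 and 22495434 per mouse. CPM are counts scaled to the same library total after TMM scaling, a scaling that sets libraries level on the bulk of their genes. Differences are log2 fold changes from edgeR's quasi-likelihood test over all 9 mice, with a standard error (SE) and a Benjamini-Hochberg adjusted p taken over the 13620 genes. Called genes are those with an adjusted p under 0.05. The samples were liver by their markers, with 13 hepatocyte markers summing to between 140500.5 and 150584 TPM (transcript levels corrected for length and library total) in Control, 141278 and 170849.97 in NASH and 138186 and 153148 in NASH+Exercise. The sum of macrophage markers was 66.7 to 137 TPM in Control mice, 942 to 1358 TPM in NASH mice and 609 to 797 TPM in trained mice, and 11 of 12 were called higher in NASH than in Control. Summed neutrophil markers went from 8.81 to 16.7 TPM in Control to 104 to 134 in NASH (8 of 10 called higher), and T and NK cell markers from 3.07 to 6.89 to 31.2 to 32.6 (9 of 9). In trained mice these sums were 57.5 to 99.5 and 11.3 to 18.7 TPM, below every NASH mouse. Of the other lists 5 of 10 stellate, 4 of 8 sinusoidal endothelial, 4 of 7 cholangiocyte and 0 of 5 B cell markers tested were called higher, and of the hepatocyte markers 1 was called higher and 5 lower. Of all genes tested, 21.2% were called higher in NASH than in Control and 14.4% lower. Of the macrophage, neutrophil and T and NK cell markers called higher, 1, 6 and 2 were under 10 estimated counts in each Control mouse and passed the filter through the Ath diet groups. None of these markers was at 0 in all mice of a group. None was called in NASH+Exercise against NASH by edgeR, where 0.162% of all genes were called.

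In the livers of NASH mice 7 of the 10 genes were down-regulated against Control and none was called higher. In that comparison 35.6% of all genes tested were called, 14.4% lower and 21.2% higher. The median log2 fold change of the 10 genes was -0.76, against 0.01 for all genes tested. Asl, Oat and Gls2 fell the most, to 25.0%, 27.9% and 46.2% of their Control level. These 3 were the ones past an absolute log2 fold change of 1, a size at which 3.02% of all genes were called lower. For 9 of the 10 genes, all but Otc, each NASH mouse was below each Control mouse, as it was for 22.2% of all genes. In bulk tissue fewer cells of a type and less RNA per cell cannot be told apart, and the part of the added macrophage RNA in these values was not tested.

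**Figure D1:**
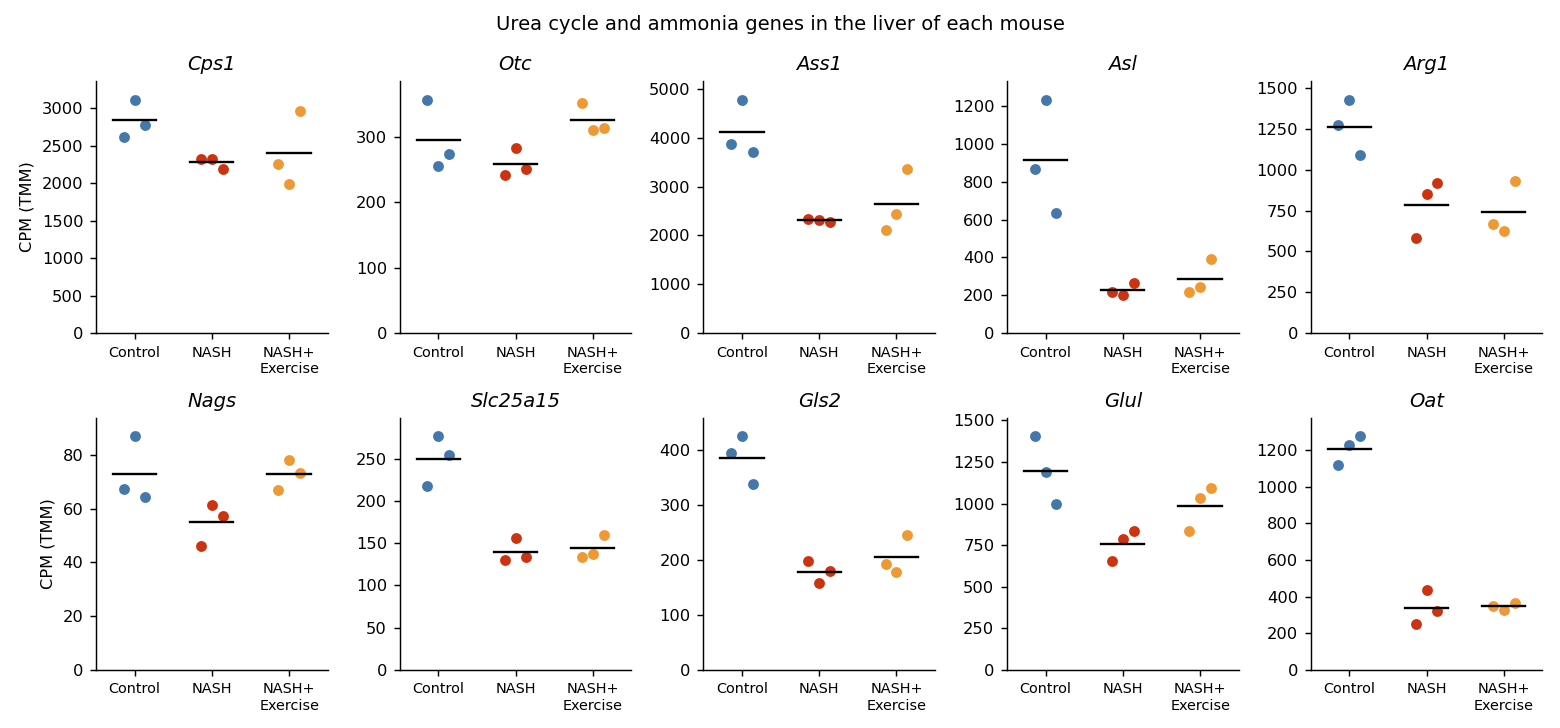
CPM after TMM scaling (y axis, from 0, own scale per gene) of each of the 10 genes in 9 mice, 1 point per mouse, grouped as Control, NASH and NASH+Exercise, with the group mean as a bar. The NASH and NASH+Exercise points of Asl and Oat lie far below the Control points, while those of Otc overlap them.

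The mitochondrial steps came first, where ammonia enters the cycle. Cps1 (Entrez Gene 227231, chr1:67122426-67231267 in GRCm38.p6), the gatekeeper enzyme, was at 2615, 3114 and 2782 CPM in Control mice 3, 4 and 29. It was at 2329, 2325 and 2192 CPM in NASH mice 5, 19 and 20. The groups did not overlap, but the difference of -0.31 (SE 0.18, adjusted p = 0.191, edgeR) did not pass the test. Its 95% interval ran from -0.70 to 0.07, and its sign turned under other scalings, to 0.04 with library size alone and 0.12 on the TPM scale.
Otc (Entrez Gene 18416, chrX:10252230-10321024), whose product makes citrulline, was at 357, 255 and 275 CPM in Control and at 242, 283 and 251 in NASH. The groups overlapped, and the difference of -0.19 (SE 0.15, adjusted p = 0.354, edgeR) did not pass the test. It too turned sign, to 0.16 with library size alone and 0.04 when scaled to hepatocyte markers.
Nags (Entrez Gene 217214, chr11:102145513-102149528) was the least abundant of the 10, at 67.2, 87.0 and 64.3 CPM in Control and 46.1, 61.5 and 57.3 in NASH. Every NASH mouse was lower, yet the difference of -0.41 (SE 0.15, adjusted p = 0.0599, edgeR) stood just outside the threshold. It was called without Control replicate 29 (-0.53, adjusted p = 0.0350) and by DESeq2 on 9 mice (adjusted p = 0.0416), and it turned to 0.03 on the TPM scale.
Slc25a15 (Entrez Gene 18408, chr8:22375550-22398621) was the one mitochondrial gene of the cycle that was called. It was at 217, 276 and 255 CPM in Control and 129.5, 156 and 134 in NASH, with a clear gap between the groups. It fell by 0.83 on the log2 scale (SE 0.14, adjusted p = 0.00101, edgeR) and was called under every alternative run. Slc25a2, a second ornithine carrier whose sequence is close to it, was too low to test, at 0.05 to 0.60 TPM across the 9 mice.

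The cytosolic steps were all down-regulated in NASH mice. Ass1 (Entrez Gene 11898, chr2:31470270-31520670) was the most abundant of the 10, at 3868, 4780.1 and 3706 CPM in Control. It was at 2333, 2313 and 2279 CPM in NASH, a spread among these mice that was narrow beside the gap to Control. It fell by 0.83 on the log2 scale, to 56.1% of Control (SE 0.20, adjusted p = 0.00740, edgeR).
Asl (Entrez Gene 109900, chr5:130011258-130024381) showed the largest fall of the 10. It was at 871, 1236 and 636 CPM in Control and at 217, 202 and 267 in NASH. Control mice varied among themselves, but even the lowest of them was far above the highest NASH mouse. The log2 fold change was -1.999 (SE 0.28, 95% interval -2.62 to -1.37, adjusted p = 0.000408, edgeR).
Arg1 (Entrez Gene 11846, chr10:24915207-24927470), which releases urea, was at 1271, 1428 and 1092 CPM in Control. In NASH it was at 582, 852 and 919 CPM, with replicate 5 well below the other two. It fell by 0.69 on the log2 scale (SE 0.22, adjusted p = 0.0301, edgeR). The call was lost without Control replicate 3 (adjusted p = 0.0695), Control replicate 4 (0.0687) or NASH replicate 5 (0.107), and with library size alone (-0.32, adjusted p = 0.208) or hepatocyte marker scaling (-0.45, adjusted p = 0.108). It was also lost with limma on TPM (-0.27, adjusted p = 0.233 at either pseudocount).

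The genes that supply or capture ammonia outside the cycle proper fell as well. Gls2 (Entrez Gene 216456, chr10:128194635-128210004) was at 394, 424 and 337.5 CPM in Control and 197, 158 and 179.5 in NASH. All NASH mice were far under all Control mice. It fell by 1.11 on the log2 scale (SE 0.16, adjusted p = 0.000420, edgeR).
Glul (Entrez Gene 14645, chr1:153899929-153909723), the gene of the pericentral ring, was at 1404, 1192 and 996 CPM in Control. It was at 656, 787 and 834 CPM in NASH, below every Control mouse. It fell by 0.66 on the log2 scale (SE 0.18, adjusted p = 0.0150, edgeR), a call lost without Control replicate 3 (adjusted p = 0.0628) or NASH replicate 5 (0.0640) and with library size alone (-0.30, adjusted p = 0.141). It was also lost with limma on TPM (-0.22, adjusted p = 0.224 at either pseudocount).
Oat (Entrez Gene 18242, chr7:132557475-132576398) was at 1117, 1226 and 1275 CPM in Control and 249, 438 and 321 in NASH. The log2 fold change was -1.84 (SE 0.20, 95% interval -2.28 to -1.41, adjusted p = 6.26e-05, edgeR), the smallest adjusted p of the 10. Asl, Oat, Gls2, Ass1 and Slc25a15 were called lower in NASH under all 18 alternatives, each mouse left out included.

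The scaling of the libraries mattered for the smaller differences. With library size alone the median over all genes moved to a log2 fold change of 0.36 in NASH against Control and to -0.23 in NASH+Exercise against NASH. Under TMM 2883 of 4844 called genes were higher in NASH than in Control, against 4489 of 5122 with library size alone. All 10 genes moved up together by that shift in the first comparison, so 5 of them were called with library size alone and 6 with scaling to hepatocyte markers.

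**Figure D2:**
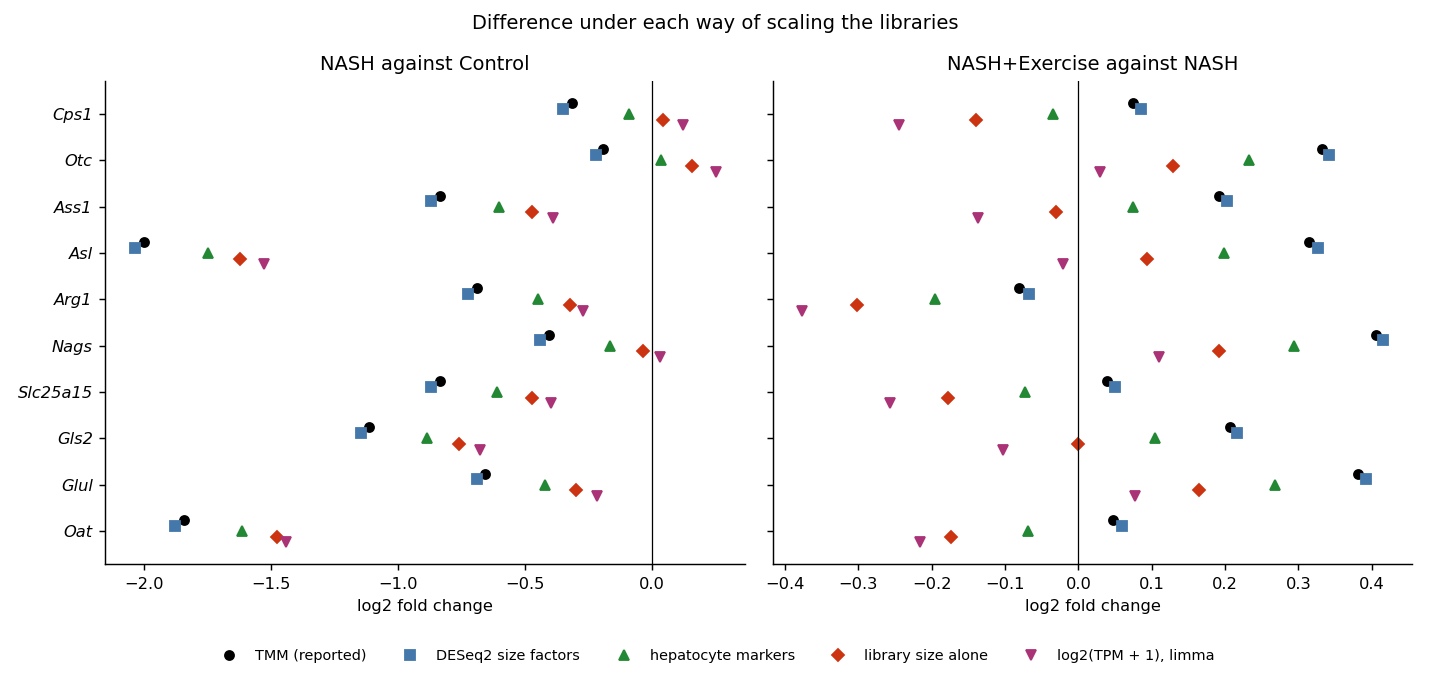
Log2 fold change (x axis) of the 10 genes (y axis) under 5 ways of scaling, for NASH against Control on the left and NASH+Exercise against NASH on the right, with 1 symbol per scaling. Asl, Oat, Gls2, Ass1, Slc25a15, Arg1 and Glul stay left of 0 on the left under all 5, while most genes on the right lie on both sides of 0.

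Aerobic exercise moved none of the 10 genes past the test. In NASH+Exercise against NASH 0 of 10 were called by edgeR, where 22 genes, 0.162% of those tested, were called in all. By DESeq2 0 of 10 were called on 6 or on 9 mice, where 3.88% and 2.26% of all genes with an adjusted p were called. At an unadjusted p under 0.05 edgeR had 1 of the 10, Nags, against 15.3% of all genes. The log2 fold changes ran from -0.08 to 0.41 with a median of 0.20, against -0.03 for all genes, and 9 of 10 were above 0 under TMM. That direction depended on the scaling for Cps1, Ass1, Asl, Slc25a15, Gls2 and Oat, whose signs turned under at least 1 other scaling, and Arg1 was below 0 under each of them. Otc, Nags and Glul were higher in each NASH+Exercise mouse than in each NASH mouse, as were 9.18% of all genes, and stayed above 0 under every scaling.

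Nags was at 67.0, 78.1 and 73.3 CPM in NASH+Exercise mice 8, 18 and 22. These values lay above all 3 NASH mice and within the range of Control. The difference from NASH was 0.41 (SE 0.15, 95% interval 0.07 to 0.74, adjusted p = 0.255, edgeR), and that from Control had a 95% interval of -0.34 to 0.34.
Glul was at 838, 1034 and 1092 CPM with exercise, between the NASH and the Control means. The difference from NASH was 0.38 (SE 0.18, 95% interval -0.01 to 0.77, adjusted p = 0.340, edgeR). Against Control it was -0.28 (SE 0.18, adjusted p = 0.294, edgeR), so Glul was called lower than Control in sedentary mice but not in trained mice, while the difference between those mice did not pass the test.
Otc was at 352, 310.3 and 314 CPM with exercise. The difference from NASH was 0.33 (SE 0.15, 95% interval -0.001 to 0.67, adjusted p = 0.329, edgeR). Otc was the gene nearest to a call by another tool, with an adjusted p of 0.0620 in DESeq2 on 6 mice.

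For the other 7 genes, as for Glul and Otc, the 95% interval of the difference from NASH included 0. Oat was at 349, 327 and 367 CPM with exercise, inside the range of the NASH mice. Its difference from NASH was 0.05, with a 95% interval of -0.37 to 0.47.
Asl was at 218, 245 and 389.8 CPM with exercise, with replicate 22 above the others. The difference from NASH was 0.31 (SE 0.27, 95% interval -0.29 to 0.92), and it was 0.020 without replicate 22.
Slc25a15, at 134, 137 and 159.6 CPM, differed from NASH by 0.04, with a 95% interval of -0.27 to 0.34. Gls2, at 192, 178 and 245.5 CPM, differed by 0.21, with a 95% interval of -0.15 to 0.56. Replicate 22 was again the highest of its group for both, and without it the differences were -0.040 for Slc25a15 and 0.060 for Gls2.
Ass1 was at 2118, 2429.9 and 3359 CPM with exercise, spread far wider than in the NASH mice. The difference from NASH was 0.19, with a 95% interval of -0.24 to 0.62, and it was -0.02 without NASH+Exercise replicate 22.
Cps1, at 2260.5, 1985 and 2966 CPM, differed by 0.07, with a 95% interval of -0.31 to 0.46, and by -0.10 without that mouse. Arg1, at 666, 625 and 933 CPM, differed by -0.08, with a 95% interval of -0.56 to 0.40. These intervals are wide beside the differences.

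Against Control, NASH+Exercise mice had 6 of the 10 genes down-regulated, where 25.1% of all genes were called and 9.57% were called lower. The 6 genes, Ass1, Asl, Arg1, Slc25a15, Gls2 and Oat, were all among the 7 called in NASH mice, and both comparisons share the same Control mice. The log2 fold changes were -1.69 for Asl, -1.80 for Oat, -0.91 for Gls2, -0.80 for Slc25a15, -0.77 for Arg1 and -0.64 for Ass1. For these 6 every trained mouse was below every Control mouse, as it was for 17.0% of all genes. Otc and Nags were at 0.14 and -0.00005, and Cps1 at -0.24 (adjusted p = 0.364, edgeR).
The call of Ass1 (adjusted p = 0.0339, edgeR) was lost with any 1 mouse left out other than Control replicate 29 and NASH+Exercise replicate 22, at adjusted p of 0.0522 to 0.128, among them Control replicates 3 and 4, NASH replicates 5, 19 and 20, and NASH+Exercise replicates 8 and 18, and with edgeR on 6 mice (0.0810). That of Arg1 (adjusted p = 0.0247) was lost without Control replicate 3 (0.0654) or 4 (0.0672), or NASH+Exercise replicate 8 (0.0898) or 18 (0.0960). The calls of Asl, Oat, Gls2 and Slc25a15 held under all 18 alternatives.

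**Figure D3:**
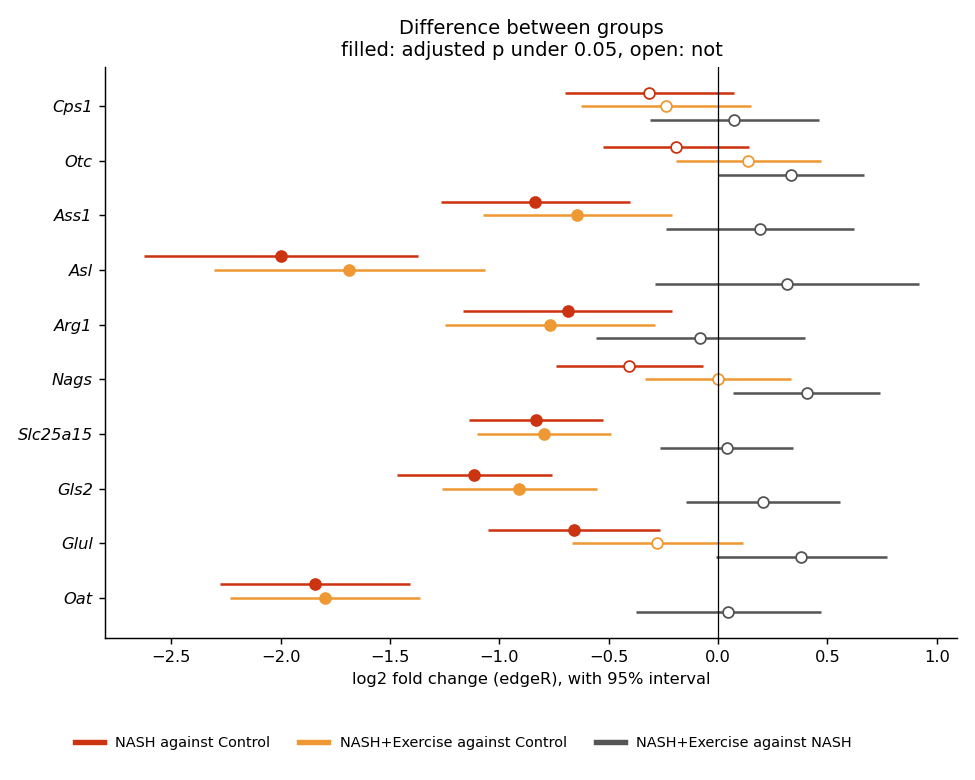
Log2 fold change from edgeR (x axis) with its 95% interval (line) for the 10 genes (y axis) in 3 comparisons, with filled points at an adjusted p under 0.05 and open points above it. Asl and Oat sit near -2 in both comparisons with Control, and every NASH+Exercise against NASH point is open.

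On the TPM scale, which corrects for transcript length and so allows genes to be compared, Ass1 led in every group. In Control livers it stood at 3720 ± 144 TPM (SD, n = 3), followed by Arg1 at 1263 ± 27.7. Asl at 842 ± 167, Oat at 831 ± 144, Cps1 at 754 ± 76.7 and Glul at 626 ± 106 came next, and each of these overlapped its neighbour. Gls2 (229 ± 9.77 TPM) and Otc (188 ± 45.3) overlapped too, and Slc25a15 (106 ± 15.3) and Nags (50.3 ± 2.56) stood apart at the bottom.
In NASH livers the middle of that order had changed. Cps1 (821 ± 77.7 TPM) and Glul (537 ± 76.0) now stood above Oat (315 ± 109.9) and Asl (288 ± 25.3), whose ranges overlapped. Otc at 221 ± 33.7 TPM stood above Gls2 at 143 ± 10.3. In NASH+Exercise livers the order was the same but for Asl (288 ± 64.3 TPM) and Oat (261 ± 28.8), which traded places within their overlapping ranges.
Together the 10 transcripts made up 8502 to 8805 TPM in Control mice, 5806 to 7089 TPM in NASH mice and 5169 to 6346 TPM in trained mice. Both Ath diet groups lay below every Control mouse.

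Ratios within a mouse do not depend on how libraries are scaled. From the values already seen, 10 ratios were chosen. Their exact permutation p cannot go below 0.1 with 3 mice against 3, so they are given as a description.
Ass1 over Asl, the synthetase over the lyase that uses its product, was 4.27, 3.71 and 5.66 in Control mice 3, 4 and 29. It was 10.4, 11.01 and 8.38 in NASH mice 5, 19 and 20 and 9.44, 9.58 and 8.32 in NASH+Exercise mice 8, 18 and 22. The pair of consecutive steps was therefore 2.202-fold further apart in NASH than in Control, and both Ath diet groups lay above every Control mouse.
Cps1 over Asl was 0.846, 0.706 and 1.24 in Control and 3.02, 3.24 and 2.36 in NASH. Cps1 was below Asl in Control mice 3 and 4, above it in Control mouse 29, and further above it in each NASH mouse. The ratio was 2.94, 2.29 and 2.15 with exercise.
Ass1 over Cps1 was lower with the diet, at 5.05, 5.25 and 4.56 in Control and 3.44, 3.40 and 3.56 in NASH. Cps1 over Otc, the first pair of enzymes, overlapped between Control (3.10 to 5.16) and NASH (3.47 to 4.05).
Among the pericentral pair, Glul over Oat was 0.961, 0.743 and 0.597 in Control, 2.01, 1.37 and 1.99 in NASH and 1.84, 2.42 and 2.28 with exercise. Glul over Cps1, the pericentral over the periportal ammonia enzyme, overlapped between Control (0.705 to 1.06) and NASH (0.556 to 0.749).

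**Figure D4:**
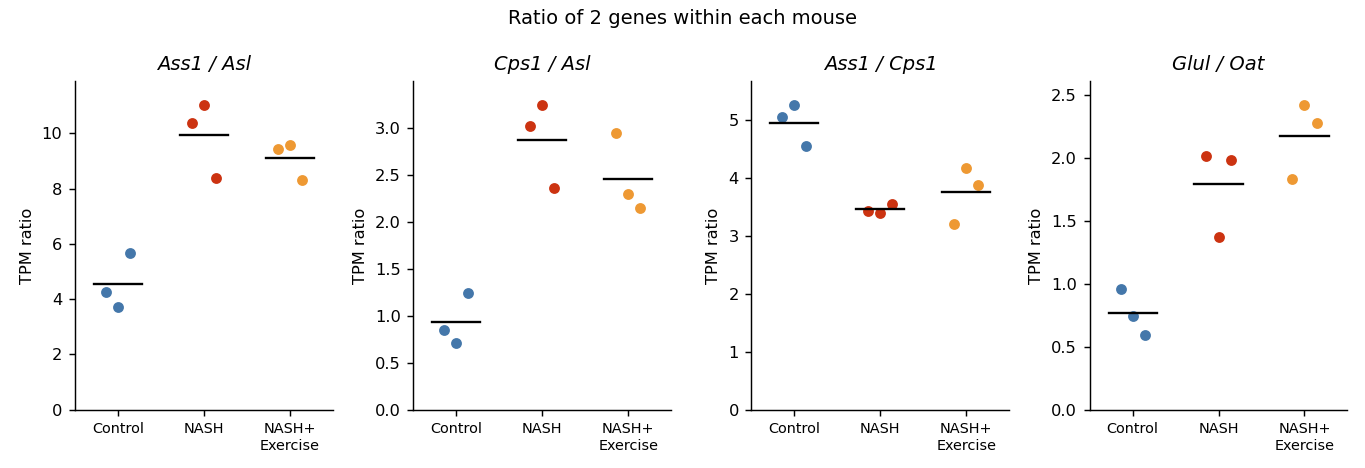
Ratio of TPM values of 2 genes within each mouse (y axis, from 0), 1 point per mouse, for Control, NASH and NASH+Exercise, with the group mean as a bar. In all 4 ratios the NASH points lie outside the range of Control, above it for those with Asl or Oat in the denominator and below it for Ass1 over Cps1.

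A paralog of Arg1 was higher, not lower, in each NASH mouse. Arg2, the mitochondrial arginase, was near the limit of detection in Control at 0.161, 0.222 and 0.255 CPM and at 0.914, 1.90 and 0.637 in NASH. It was under 10 estimated counts in each Control mouse and passed the filter on low counts only through the Ath diet groups, so its values are a description. Arg1 was still between 431 and 7616 times Arg2 in TPM across the 9 mice.

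The wider pathway was read through lists drawn up by role. Of 19 partners of the urea cycle, carriers, carbonic anhydrases and enzymes of arginine, proline and aspartate, 17 were tested, 5 fell and 6 rose in NASH, with a median of -0.18, where 14.4% of all genes were called lower and 21.2% higher. Of the 6 that rose, 2, Arg2 and Nos2, passed the filter only through the Ath diet groups. Slc25a13 (citrin), which exports the aspartate that Ass1 needs, was at 224, 248 and 253 CPM in Control and 112, 114 and 134 in NASH (log2 fold change -1.01, SE 0.14, adjusted p = 0.000267, edgeR). Slc25a22, a mitochondrial glutamate carrier, fell by 1.19 on the log2 scale. Asns, which makes asparagine, was at -1.41 and Odc1, which turns ornithine toward polyamines, at -0.84, both called lower. The call of Asns was lost without Control replicate 4 (adjusted p = 0.0547), NASH replicate 5 (0.0614) or NASH replicate 20 (0.0582), and under some other settings. It held under 11 of 18 alternatives, with log2 fold changes from -1.94 to -0.70.
The partners that rose are enzymes and carriers of arginine, proline and nitric oxide. Nos2, the inducible nitric oxide synthase, was at about 0.05 CPM in each Control mouse (1 count each) and 2.29, 1.09 and 2.42 CPM in NASH, values that are again a description. Aldh18a1, which starts proline and ornithine synthesis from glutamate, rose by 2.85 (SE 0.25), Slc7a1, an arginine carrier, by 1.41 (SE 0.26), and Gatm, which makes the creatine precursor, by 1.41 (SE 0.26), all as log2 fold changes. These 4 and Arg2 were between 0.05 and 6.48 CPM in Control, far under the members, and the part of immune cell RNA in their higher values was not tested.
In NASH+Exercise against NASH 0 of the 17 partners were called by edgeR, beside 0.162% of all genes. By DESeq2 on 6 or on 9 mice 0 were called, beside 3.88% and 2.26% of all genes. At an unadjusted p under 0.05 edgeR had 2, beside 15.3% of all genes. Against Control, trained mice had 3 partners called lower (9.57% of all genes) and 4 called higher (15.6%), among them Slc25a22 at -1.51.

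Of 18 genes of glutamine, glutamate and ammonia transport and transamination, 16 were tested, 8 fell and 2 rose in NASH, with a median of -0.58. In that comparison 14.4% of all genes were called lower and 21.2% higher. Got1, the cytosolic aspartate aminotransferase, was at 187, 393 and 308 CPM in Control and 115, 112 and 107 in NASH. It fell by 1.41 on the log2 scale (SE 0.32, adjusted p = 0.00737, edgeR). Also called lower were Rhbg, an ammonia channel of pericentral cells, at -1.2003, Slc1a2, a glutamate carrier of the same cells, at -0.94, and Slc38a4, an amino acid carrier, at -0.76. Slc1a5, a glutamine carrier, rose by 1.37 (SE 0.26).
With exercise 0 of these 16 were called against NASH by edgeR, beside 0.162% of all genes. DESeq2 on 6 or on 9 mice also called 0, beside 3.88% and 2.26% of all genes. At an unadjusted p under 0.05 edgeR had 2, beside 15.3% of all genes. Gpt2, the mitochondrial alanine aminotransferase, was at -0.88 in trained mice against Control (adjusted p = 0.0112, edgeR).

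**Figure D5:**
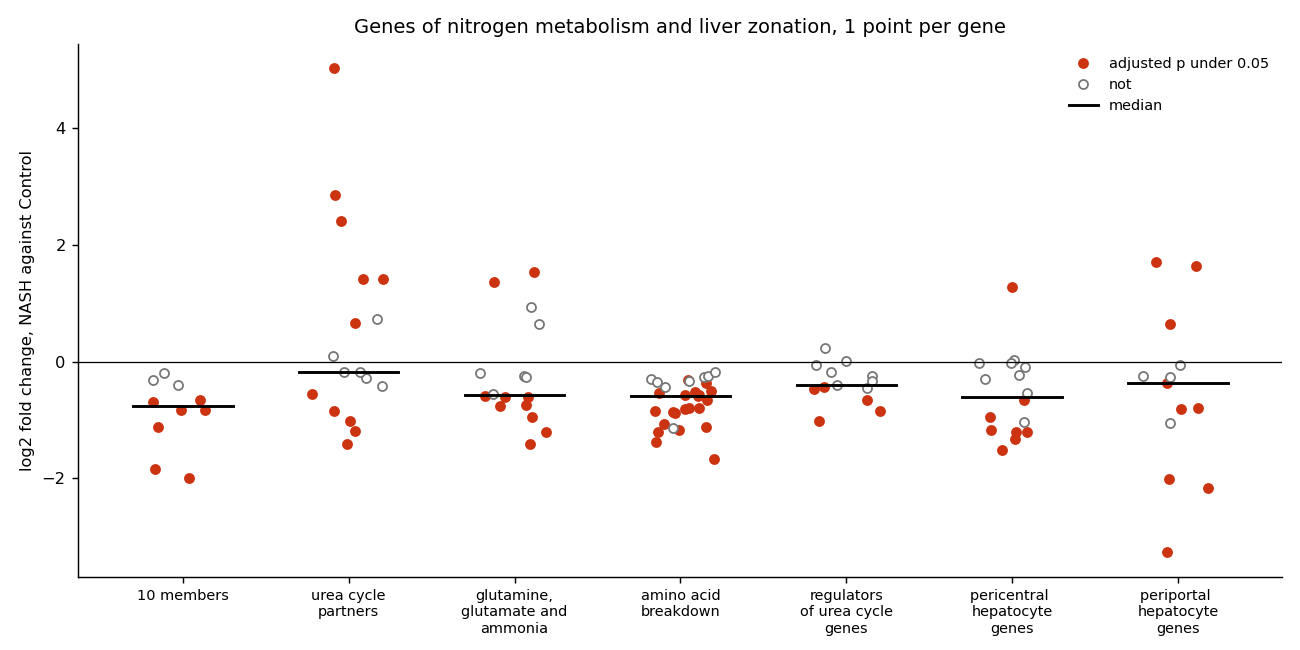
Log2 fold change of NASH against Control (y axis) for the 10 members and 6 lists of related genes (x axis), 1 point per gene, filled at an adjusted p under 0.05, with the median of each list as a bar. All 10 members and all 29 genes of amino acid breakdown lie below 0 under TMM scaling, while the partners spread to both sides.

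The zones of the lobule were read with genes that mark them, members left out. Of 16 pericentral genes 7 fell and 1 rose in NASH, with a median of -0.60. In that comparison 14.4% of all genes were called lower and 21.2% higher. Axin2, a target of Wnt signaling around the central vein, was at 14.7, 18.6 and 16.3 CPM in Control and 4.36, 6.63 and 8.88 in NASH (log2 fold change -1.32, SE 0.29, adjusted p = 0.00591, edgeR). Tbx3, a transcription factor of the same zone, was at -1.51 and Cyp2e1, a cytochrome of that zone, at -1.203, while Slc13a3, a dicarboxylate carrier, rose by 1.29. The call of Tbx3 was lost without Control replicate 4 (adjusted p = 0.0584), and it held under 16 of 18 alternatives.
Of 13 periportal genes 6 fell and 3 rose in NASH, with a median of -0.37, beside the same 14.4% and 21.2% of all genes. The lowest log2 fold changes were -3.27 for Sult5a1, a sulfotransferase, -2.17 for Etnppl, which degrades phosphoethanolamine, and -2.003 for G6pc, the last enzyme of glucose release. Cdh1 (E-cadherin) and Hsd17b6, a steroid dehydrogenase, rose by 1.64 and 1.71. Genes of both zones were thus among those that fell, as Glul and Asl were among the members.
With exercise 0 of 16 pericentral and 0 of 13 periportal genes were called against NASH by edgeR, beside 0.162% of all genes. At an unadjusted p under 0.05 edgeR had 4 and 3, beside 15.3% of all genes. DESeq2 on 6 mice called 2 and 2, beside 3.88% of all genes.

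The genes whose log2 CPM followed Cps1 most closely over the 9 mice were Kif13a (Pearson r 0.96), Thnsl2 (0.95), Phykpl, Ntn3 and Gpx6 (each 0.94). Among the members Ass1 came nearest, with r 0.87, and Otc was at -0.07. For Glul they were Abhd3 (0.98), Ndufs5 (0.97), Atp5j, Ndufb3 and Idh1 (0.97, 0.96 and 0.96), of which Ndufs5, Ndufb3 and Atp5j encode parts of the respiratory chain or ATP synthase. The nearest member to Glul was Asl, with r 0.81. These 9 points share 3 groups and the same scaling, and the r values are a description. Gpx6 was near the limit of detection, at means of 1.01, 0.19 and 0.38 CPM in Control, NASH and NASH+Exercise.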

How the data were processed

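Liver RNA of 9 mice was sequenced, 1 library per mouse. The authors deposited, for each gene and mouse, an estimated count of reads, FPKM and TPM; the submitters' processing notes name HISAT2 2.1.0, Bowtie2 2.2.5, RSEM 1.2.8 and GRCm38.p6. The deposited FPKM values were not used, and the deposited TPM values served for levels between genes, ratios and marker sums. One file held all 9 mice, and 0 of 428304 values it shares with the other files differed. Genes are given by Entrez identifier, of which 17728 of 17846 had a symbol in the RefSeq table of GRCm38.p6, the source of positions.

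Estimated counts, of which 29.0% to 32.8% per mouse were not whole, were rounded. Genes with too few counts were dropped by filterByExpr (minimum 10, minimum total 15). All 9 libraries were then fitted together in edgeR 4.0.16 (R 4.3.3) after TMM scaling, by robust quasi-likelihood and with no term beside the group, and p-values were adjusted over 13620 genes. The common biological coefficient of variation was 0.192. Nothing in the labels pairs or batches the mice. Each p-value weighs a difference between groups against the spread between mice within groups. On simulated counts for NASH against Control with 13532.4 genes on average, edgeR recovered 74.1% of changes of 1 on the log2 scale, and with 13519.4 genes 100% of changes of 2. On average 4.32% and 4.21% of its calls there were false. The simulation changed a small set of well expressed genes, at random up or down, with the same dispersion for every gene. In the data 35.6% of genes were called, so these rates are not the power of the study.

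Alternatives were DESeq2 1.42.0, limma 3.58.1 on log2(TPM + 1) and log2(TPM + 0.1), 3 other scalings, no filter, fits of 6 mice and each mouse left out. The genes named were all members, paralogs, up to 4 genes per list, comparison and direction with the largest called change, and the 5 genes most like Cps1 and Glul; some of these are not reported here. The members and lists were chosen with earlier results of these data known. Lists were drawn up from general knowledge, with marker lists for hepatocytes, for 4 immune cell classes and for stellate, sinusoidal endothelial and bile duct cells. Rhbg and Slc1a2 are in 2 lists each. At this depth, groups of 3 limit the precision.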

Additional observations from a re-analysis of the deposited data

How the results depend on the processing

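No paired analysis was possible because the groups share no replicate numbers. Of 162 counts of called genes under another setting 148 stayed within 1.5 times their value, and of 270 log2 fold changes of the 10 members 227 kept their direction and their side of the threshold, 8 lost a call, 1 gained one and 34 turned sign, none of them a called value. With 1 mouse left out these were 161 of 162 and 243 of 270. Causes were not tested.

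In NASH against Control the called genes of glutamine, glutamate and ammonia went from 10 to 6 with scaling to hepatocyte markers. Those of amino acid breakdown went from 21 to 11 with library size alone, 12 with hepatocyte markers and 7 with limma at either pseudocount. Regulators went from 5 to 2, 3 and 1 in the same order, and from 3 to 5 with 1 mouse left out, 3 without NASH replicate 5. In NASH+Exercise against NASH, where edgeR called 0 in each list, DESeq2 on 6 mice called 1 gene of amino acid breakdown, 2 pericentral and 2 periportal, and on 9 mice 1 pericentral and 1 periportal. Over all genes edgeR called 22 there, DESeq2 522 (6 mice) and 309 (9 mice), limma 297 and 30 with a pseudocount of 1 and 0.1, hepatocyte marker scaling 13, and 0 to 34 with 1 mouse left out.

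Values that turned sign follow, with the setting. In NASH against Control, Cps1 was 0.043 with library size alone and 0.12 with limma at either pseudocount, Otc was 0.16 with library size, 0.037 with hepatocyte markers and 0.25 with limma, and Nags was 0.032 with limma. In NASH+Exercise against NASH with library size, Cps1 was -0.14, Ass1 -0.030, Slc25a15 -0.18, Gls2 -0.00029 and Oat -0.17. With hepatocyte markers Cps1 was -0.035, Slc25a15 -0.073 and Oat -0.069. With limma at either pseudocount Cps1 was -0.25, Ass1 -0.14, Asl -0.022, Slc25a15 -0.26, Gls2 -0.10 and Oat -0.22. In NASH+Exercise against Control Nags was 0.16 with library size, 0.13 with hepatocyte markers, 0.14 with limma and 0.038 with edgeR on 6 mice.

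With 1 mouse left out in NASH+Exercise against NASH, Cps1 ranged from -0.10 to 0.20, Ass1 from -0.019 to 0.33, Arg1 from -0.28 to 0.050, Slc25a15 from -0.040 to 0.15 and Oat from -0.13 to 0.31, and in NASH+Exercise against Control Nags from -0.11 to 0.17.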

Other observations

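The genes that feed nitrogen to the urea cycle by breaking down amino acids were down-regulated in NASH livers. Of 29 tested 21 fell and 0 rose against Control, where 14.4% of all genes were called lower, with a median log2 fold change of -0.59. Cth, which makes cysteine from cystathionine, was at 563, 598 and 551 CPM in Control and 157, 208 and 176 in NASH, with no overlap. It fell by 1.66 on the log2 scale (SE 0.15, adjusted p = 2.52e-05, edgeR) and was at -1.98 in NASH+Exercise against Control. Oplah, of the glutathione cycle, was at -1.37, Aass, which starts lysine breakdown, at -1.195 and Hpd, of tyrosine breakdown, at -1.16, all called lower. In trained mice Agxt, which handles glyoxylate and alanine, and Gldc, of the glycine cleavage system, were at -1.29 and -1.17 against Control. With library size, hepatocyte marker or TPM scaling fewer of these genes were called, 7 to 12 against 21. In NASH+Exercise against NASH 0 of 29 were called by edgeR, beside 0.162% of all genes. DESeq2 on 6 mice called 1, beside 3.88% of all genes. At an unadjusted p under 0.05 edgeR had 3, beside 15.3% of all genes.

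Of 13 regulators known to act on urea cycle genes 5 fell and 0 rose in NASH, with a median of -0.40. In that comparison 14.4% of all genes were called lower and 21.2% higher. Creb3l3, a hepatocyte transcription factor of fasting, was at 515, 623 and 535 CPM in Control and 276, 228 and 327 CPM in NASH. It fell by 1.01 on the log2 scale (SE 0.16, adjusted p = 0.000748, edgeR), and in trained mice it was at 262 to 306 CPM. Nr1h4, the bile acid receptor FXR, was at 182, 170.2 and 119 CPM in Control and 75.3, 75.6 and 110.1 CPM in NASH, and fell by 0.85 (SE 0.21, adjusted p = 0.0102, edgeR). Cebpa, a hepatocyte transcription factor, was called lower at -0.46, and Gcgr, the glucagon receptor, was at -0.36 in trained mice against Control (adjusted p = 0.0386, edgeR), a call lost with any 1 of the 9 mice left out (adjusted p 0.0528 to 0.104). The call of Cebpa was lost without Control replicate 4 or 29 or NASH replicate 5, 19 or 20, at adjusted p of 0.0519 to 0.0905. It was also lost under some other settings, and held under 9 of 18 alternatives, with log2 fold changes from -0.55 to -0.023. The call of Nr1h4 held under 15 of 18, with log2 fold changes from -1.06 to -0.41. That of Gcgr in trained mice against Control held under 3 of 18. Between 1 and 3 of the 13 regulators were called in NASH against Control under library size, hepatocyte marker or TPM scaling.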
